A study of Mus musculus with 6 samples.

Results

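The genes described here encode the chemokines, the interleukins and their receptors, together with the cytokines Csf1 and Lif. They were chosen by name as the protein-coding mouse genes of GENCODE M21 whose symbols begin with Ccl, Cxcl, Ccr, Cxcr or Il followed by a digit, plus Cx3cl1, Csf1 and Lif. This gave 137 genes of the 57132 gene identifiers counted. RNA was sequenced from 3 samples each of 2 immortalized podocyte lines from male mice of 8 weeks. The wild-type line, IMWT, carried Col4a3+/+, and the Alport syndrome line, IMAS, carried Col4a3-/- and so lacked a chain of the type IV collagen of the glomerular basement membrane. Both lines came from crosses with H-2Kb-tsA58 mice and carry a temperature-sensitive large T antigen under an interferon-inducible promoter. Per the sample records, cells of both lines grew in DMEM/F12 with 20 U/mL interferon gamma at 33 °C and differentiated for 14 days at 37 °C. The study's methods give other figures for the interferon dose and the days and remove interferon during differentiation, so the exposure of the sequenced cells is uncertain. Each genotype was 1 line, so genotype and line cannot be told apart. The study's statistics section says in general terms that independent experiments were analysed, but no source used here says of these samples that they were separate cultures. If they were not, the p-values measure only the spread between these samples, which may be technical.

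Chemokines are small secreted proteins that bind G protein-coupled receptors on leukocytes and other cells and direct their movement. Interleukins act through receptors built of several chains, some of which, such as the gp130 chain encoded by Il6st, serve many ligands. In the glomerulus, podocytes and mesangial cells are known sources of chemokines such as Ccl2 and of Csf1, the growth factor of macrophages.

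The libraries held 45417221 to 54290968 counts. Levels are given as CPM, the reads of a gene scaled to a common TMM-adjusted library, and differences as log2 fold changes of AS over WT from edgeR's quasi-likelihood test, with a gene called at a Benjamini-Hochberg adjusted p under 0.05. Col4a3 was at 938, 1051 and 1271 CPM in the WT samples and at 62.3, 61.2 and 82.9 in the AS samples. All 3 WT samples lay far above all AS samples. Over all genes WT replicate 1 stood apart, with a chi-square per degree of freedom of 43 and 45.2 against the other WT samples, beside 9.06 between those and 17.1 to 20.6 among the AS samples. The podocyte markers Synpo, at 803 against 526 CPM, and Wt1, at 20.6 against 2.50, were both called lower in AS. In all, 8 of the 9 tested genes of a list of 12 podocyte markers were called, 6 of them lower in AS. Of all tested genes, 40.1% were called. In bulk samples such as these, fewer cells of a type and less RNA per cell cannot be told apart.

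Of the 137 genes, 36 had no count in any sample, 51 had counts below the expression filter, and 50 were tested. A total of 28 of the 50 were called, 14 higher and 14 lower in AS, beside 40.1% of all 16263 genes tested (20.4% higher and 19.6% lower). The share among the cytokine and receptor genes was 56.0%, and their median log2 fold change was 0.01, as was that of all tested genes. A fold change over 2 was reached by 13 called genes, 8 higher and 5 lower, beside 11.2% of all genes (4.59% higher and 6.59% lower). Of these genes, Ccl9, Il17re, Il1rapl1 and Il20rb, all higher, and Il6, lower, had a mean under 1 CPM. Each of these low genes but Il6 lost its call in at least 1 fit with a sample left out. The WT and AS samples did not overlap for 32 of the 50, beside 52.3% of all genes. Without AS replicate 1 only 17 of 52 tested genes of the set were called, 7 higher and 10 lower, beside 33.3% of all genes. Without any other single sample 20 to 26 of 50 to 52 were called, beside 30.7% to 40.4% of all genes. The 26 (13 higher and 13 lower) were called without WT replicate 1, beside 40.4% of all genes. The 14 genes called under every setting that tested them were Ccl2, Ccl7, Cxcl12, Il15, Il17d and Il1rl1, higher in AS, and Csf1, Cxcl14, Il11, Il11ra1, Il1rap, Il23r, Il3ra and Il6, lower in AS. Il6 was below the minimum of the setting with a mean CPM of at least 1 and was not tested there. The plot of called genes by sample shows the separation for those with a mean of at least 1 CPM.

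**Figure D1:**
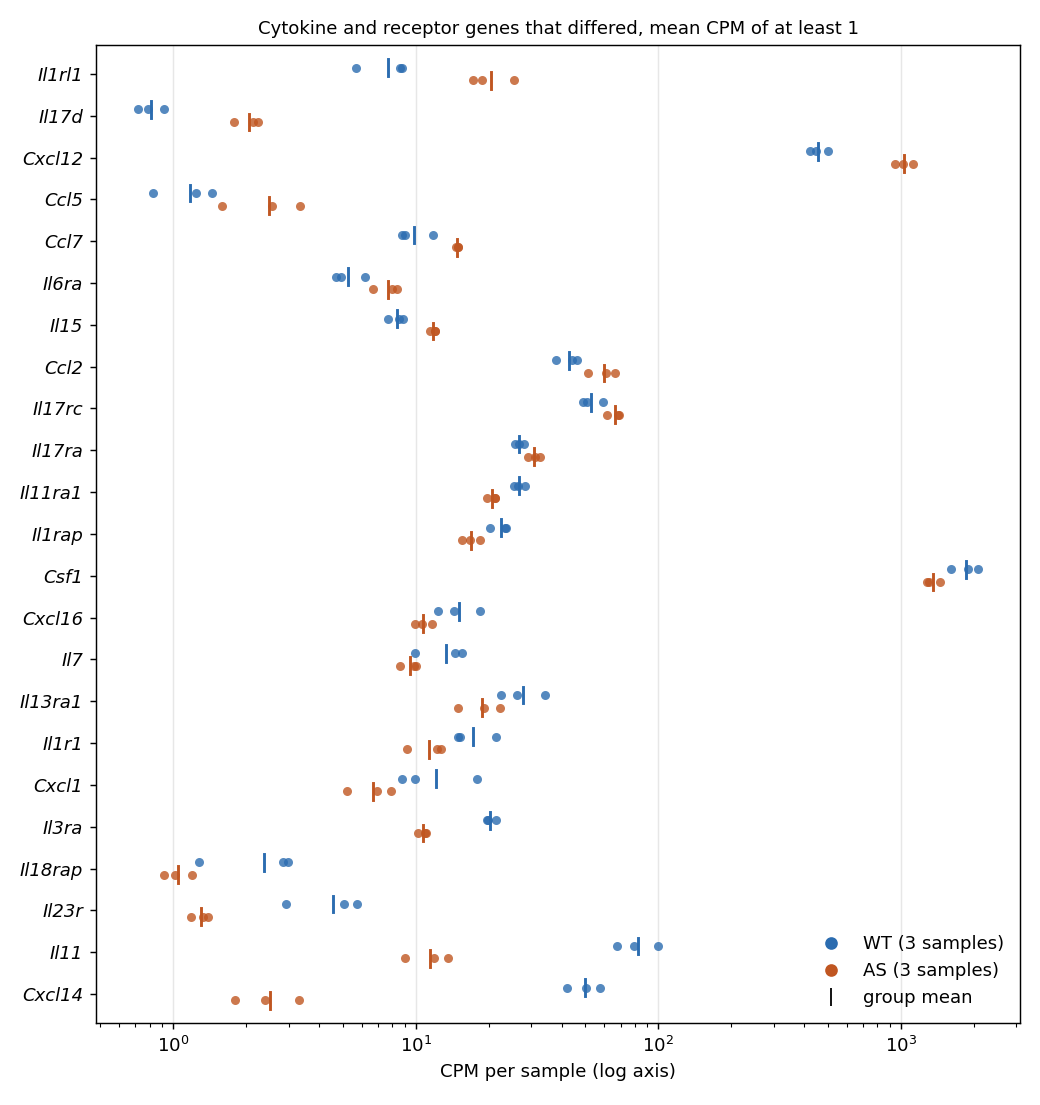
CPM in each of the 6 samples (log axis) for the 23 called genes with a mean of at least 1 CPM, 3 WT samples in blue and 3 AS samples in orange, with group means as vertical bars. Cxcl14 and Il11 stand furthest apart, whereas for Il7 the WT and AS samples overlap.

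The DNA before the annotated start is printed for 6 of these genes. They are the 2 genes with the largest fall among called genes with a mean of at least 1 CPM (Cxcl14 and Il11), the most abundant cytokine gene (Csf1), the CXC chemokine Cxcl1, the chemokine with the highest level (Cxcl12) and Cxcl10, an interferon-responsive chemokine that was not called. Each is the 250 bases before the annotated start, 5′ to 3′ on the gene's strand, from RefSeq on GRCm38.p6, with capitals marking matches to the NF-kB, AP-1 (TGANTCA) or STAT GAS (TTCNNNGAA) motif on either strand. The counts used mm39 per the processing notes, so these coordinates are not those of the counting.
Cxcl14, chr13:56296552-56296801, minus strand: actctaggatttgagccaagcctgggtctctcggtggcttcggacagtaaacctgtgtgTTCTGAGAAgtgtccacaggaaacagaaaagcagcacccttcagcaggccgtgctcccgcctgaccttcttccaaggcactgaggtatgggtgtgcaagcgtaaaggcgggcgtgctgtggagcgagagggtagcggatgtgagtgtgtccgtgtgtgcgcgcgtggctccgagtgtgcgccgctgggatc
Il11, chr7:4778142-4778391, minus strand: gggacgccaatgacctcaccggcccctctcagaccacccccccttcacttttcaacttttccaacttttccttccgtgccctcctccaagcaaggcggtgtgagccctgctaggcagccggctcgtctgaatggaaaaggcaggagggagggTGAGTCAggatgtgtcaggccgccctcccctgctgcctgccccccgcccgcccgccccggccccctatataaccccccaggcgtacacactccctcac
Csf1, chr3:107760470-107760719, minus strand: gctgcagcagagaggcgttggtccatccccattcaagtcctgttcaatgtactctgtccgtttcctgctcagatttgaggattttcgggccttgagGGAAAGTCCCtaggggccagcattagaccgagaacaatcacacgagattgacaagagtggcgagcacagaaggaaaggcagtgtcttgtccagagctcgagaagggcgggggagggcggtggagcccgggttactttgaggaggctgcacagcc
Cxcl1, chr5:90890995-90891244, plus strand: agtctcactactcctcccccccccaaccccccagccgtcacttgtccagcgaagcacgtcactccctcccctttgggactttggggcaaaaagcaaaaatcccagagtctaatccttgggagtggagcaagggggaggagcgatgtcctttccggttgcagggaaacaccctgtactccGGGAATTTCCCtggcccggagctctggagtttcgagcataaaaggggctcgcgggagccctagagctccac
Cxcl12, chr6:117168285-117168534, plus strand: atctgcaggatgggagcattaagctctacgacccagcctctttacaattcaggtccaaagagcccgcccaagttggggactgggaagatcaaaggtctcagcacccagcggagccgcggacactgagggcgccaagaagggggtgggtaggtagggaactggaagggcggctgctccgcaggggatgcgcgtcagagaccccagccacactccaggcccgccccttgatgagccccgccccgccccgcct
Cxcl10, chr5:92348890-92349139, minus strand: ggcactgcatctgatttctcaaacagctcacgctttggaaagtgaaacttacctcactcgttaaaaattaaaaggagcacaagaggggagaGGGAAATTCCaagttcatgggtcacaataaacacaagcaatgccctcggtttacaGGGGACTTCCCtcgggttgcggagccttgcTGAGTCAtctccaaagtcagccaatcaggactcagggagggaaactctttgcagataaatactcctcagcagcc

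Cxcl14 held a GAS match 191 bases before its start, Il11 an AP-1 match 98 bases before it, Csf1 an NF-kB match 154 bases before it and Cxcl1 an NF-kB match 71 bases before it. Cxcl12 held none of the 3 motifs, and Cxcl10 held an NF-kB match 159 bases before its start, overlapping NF-kB matches 104 and 103 bases before it and an AP-1 match 74 bases before it. A second annotated start of Il11 held none. Among the 106 of 137 genes in the table, 17.0% held an NF-kB, 19.8% an AP-1 and 11.3% a GAS match, against 8.23%, 7.82% and 8.13% of all 27025 genes. Promoters were available for 9 of the 14 genes called higher in AS, all but Ccl2, Ccl5, Ccl7, Il15 and Il17ra. Of these 9, 1 held NF-kB, 1 AP-1 and none a GAS match. For the genes called lower they were available for 12 of 14, all but Cxcl16 and Il7, and 4, 2 and 1 of these held a match. Among 18 of the 22 tested genes that were not called, 2, 7 and 1 did. These matches are descriptions of letters in a window and show no binding.

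Among the CXC chemokines, Cxcl14 showed the largest fall of any gene in the set. Cxcl14, a chemokine made by many epithelial and stromal tissues, was at 57.4, 42.0 and 50.3 CPM in WT and at 2.40, 1.81 and 3.31 in AS. All WT samples lay far above all AS samples. The log2 fold change was -4.31 (SE 0.20), a level 19.8-fold higher in WT, with an adjusted p = 3.99e-07. Cxcl12, which binds Cxcr4 and the scavenging receptor Ackr3, went the other way. It was at 447, 424 and 499.6 CPM in WT and at 1020.4, 945 and 1124 in AS, with a log2 fold change of 1.17 (SE 0.09) and an adjusted p = 9.07e-06.

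Cxcl1, a neutrophil chemoattractant, was at 17.9, 9.97 and 8.75 CPM in WT and 5.24, 7.93 and 6.90 in AS, with a log2 fold change of -0.87 (SE 0.26). WT replicate 1 was 1.91 times the mean of the other WT samples, and the call (adjusted p = 0.0253) was lost without AS replicate 1 (0.0831) or AS replicate 3 (0.0727). Cxcl16, a membrane-bound chemokine and scavenger receptor, was at 12.3, 14.4 and 18.4 CPM in WT and 10.7, 9.96 and 11.7 in AS (log2 fold change -0.48, SE 0.15, adjusted p = 0.0255). That call was lost without WT replicate 3, AS replicate 1 or AS replicate 2. Cxcl10 was at 11.5, 8.18 and 9.99 CPM in WT and 8.99, 9.22 and 10.2 in AS, with overlapping groups and a log2 fold change of -0.06 (adjusted p = 0.758). Cx3cl1, the membrane-bound ligand of Cx3cr1, was at 56.7, 53.5 and 56.2 CPM in WT and 68.3, 55.1 and 60.0 in AS, with a log2 fold change of 0.14 (SE 0.08) and an adjusted p = 0.193. The other 7 CXC genes were not tested. Of these, Cxcl3, Cxcl13 and Cxcl15 had no count, and none had more than the 47 counts of Cxcl2 over all samples.

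Of 7 tested CC chemokines, 4 were called, all higher in AS, beside 40.1% of all tested genes called (20.4% higher). The called genes Ccl2, Ccl5, Ccl7 and Ccl9 all lie on chromosome 11, and the 3 not called lie on chromosomes 4 and 8. Ccl2, which attracts monocytes through Ccr2, was at 46.2, 38.1 and 44.3 CPM in WT and 61.2, 66.5 and 51.6 in AS (log2 fold change 0.48, SE 0.10, adjusted p = 0.00495). Ccl7, a neighbour of Ccl2 on chromosome 11 that also binds Ccr2, was at 11.8, 8.82 and 9.03 CPM in WT and 14.7, 14.9 and 14.9 in AS (log2 fold change 0.59, SE 0.12, adjusted p = 0.00434). Neither gene overlapped between the groups. The ratio of Ccl7 to Ccl2 per length ran from 0.290 to 0.364 in WT and from 0.319 to 0.411 in AS.

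Ccl5, which attracts T cells and monocytes, was at 0.828, 1.24 and 1.45 CPM in WT and 2.55, 1.59 and 3.34 in AS (log2 fold change 1.09, SE 0.32, adjusted p = 0.0208), a call lost without AS replicate 1 or 3. Ccl9 was low, at 0, 0.171 and 0.0433 CPM in WT and 0.799, 0.292 and 0.636 in AS (log2 fold change 2.99, SE 0.79, adjusted p = 0.0140), and its call was lost without WT replicate 3 (0.0540). Its log2 fold change was 2.39 without WT replicate 1 and 4.63 without WT replicate 2. Ccl25, Ccl17 and Ccl27a were not called (log2 fold changes 0.20, -0.17 and 0.07). Ccl27a overlaps Il11ra1 on the other strand. Ccl25 likewise overlaps Elavl1, which had 39412 counts in all beside 2316 for Ccl25. No source used here states whether counting used strand. The 16 CC chemokine genes that were not tested had at most 13 counts each over all samples. The 11 at 0 were Ccl1, Ccl3, Ccl8, Ccl11, Ccl12, Ccl19, Ccl21a, Ccl21b, Ccl24, Ccl26 and Ccl27b, where a count of 0 allows up to 0.0209 CPM over the WT group and 0.0198 over the AS group, on counting error only.

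The chemokine receptors were almost undetected. Of 17, only Cxcr4 was tested, at 0.296, 0.299 and 0.303 CPM in WT and 0.133, 0.0972 and 0.363 in AS (log2 fold change -0.57, SE 0.54, adjusted p = 0.439). Another 8, among them Ccr1, Ccr4, Ccr7 and Cxcr3, had no count, and the rest had at most 31 counts over all samples. The leukocyte genes Cd3e, Adgre1 and Tyrobp were likewise at 0, and Ptprc, the pan-leukocyte CD45 gene, was at 0.248 CPM in WT and 0.141 in AS. The summed level of 17 leukocyte markers was 16.4 to 20.0 CPM in WT and 28.2 to 33.5 in AS. Of 6 tested, Cd14 alone was called (13.5 against 26.7 CPM), beside 40.1% of all tested genes.

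Ligands and receptors were set side by side as CPM per kb of exon. Of 10 pairings of a tested chemokine with a classical receptor, 9 had a receptor below the filter and 3 of these a receptor at 0, as with Ccl2 at 37.6 per kb in WT and 52.5 in AS while Ccr2 had 3 counts in all. Cxcr4 was the receptor tested. The atypical receptor of Cxcl12, Ackr3, which scavenges that chemokine without G protein signalling and reached 34.1 per kb in WT and 23.5 in AS. Ackr3 was called lower in AS (114 against 78.6 CPM, log2 fold change -0.54, SE 0.16, adjusted p = 0.0269), but not with DESeq2 (0.0676) or without any one AS replicate (0.0538 to 0.0939). The Cxcl12 to Ackr3 ratio per length was 1.19, 1.81 and 2.20 in WT and 5.10, 4.94 and 6.08 in AS, with no overlap. The plot of ligand and receptor levels shows these pairings.

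**Figure D2:**
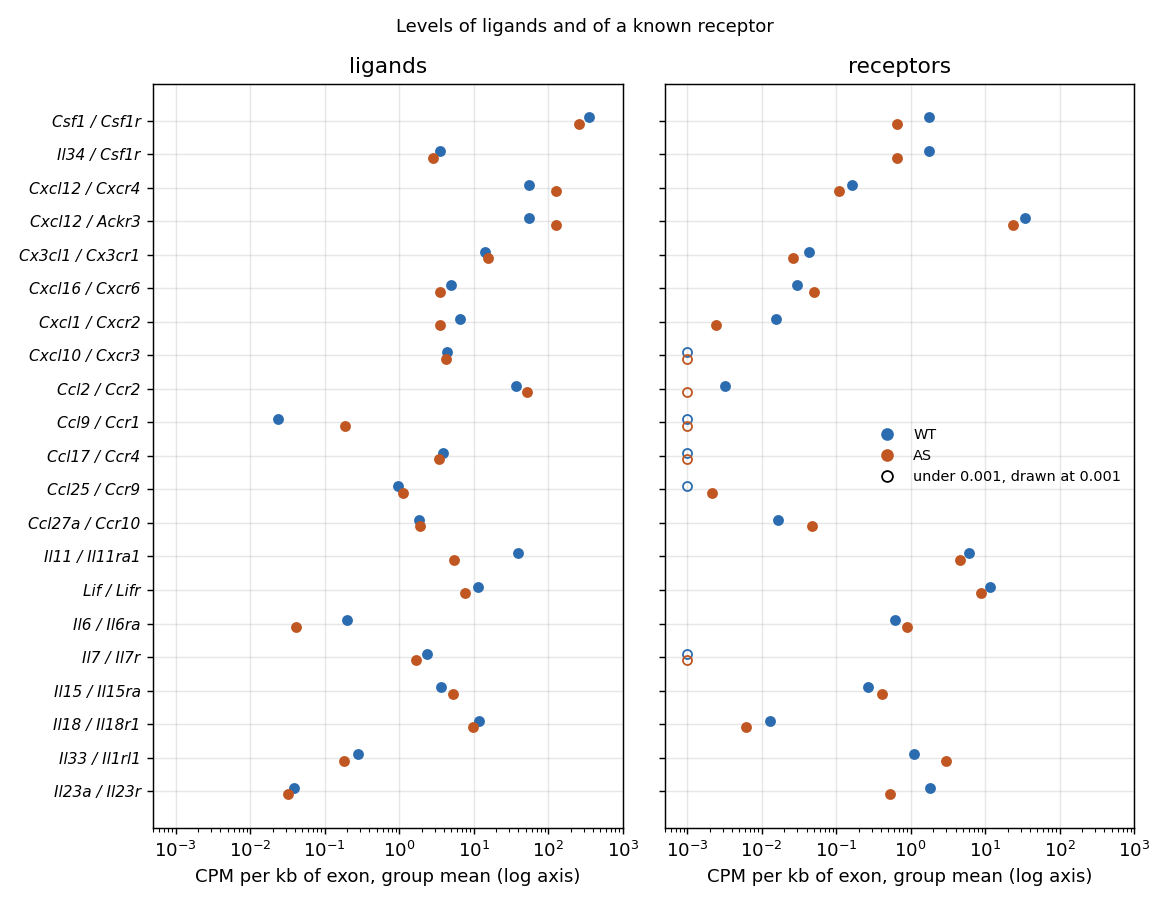
Mean CPM per kb of exon (log axis) of ligands (left) and of a known receptor (right) for 21 textbook pairings, WT in blue and AS in orange, with open symbols for receptors under 0.001. The chemokine ligands lie above their classical receptors, while Ackr3, Lifr and Il11ra1 lie within the range of the ligands.

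Csf1 was the most abundant gene of the set. It was at 1609.7, 1886 and 2093 CPM in WT and 1289, 1458 and 1313 in AS, and no AS sample reached the lowest WT sample. The log2 fold change was -0.46 (SE 0.10) with an adjusted p = 0.00527. Csf1 made up 43.5 to 52.2% of the summed level per kb of all 137 genes in WT and 38.1 to 42.0% in AS. Cxcl12 made up 7.44 to 8.05% in WT and 17.6 to 21.2% in AS. The ratio of Csf1 to Cxcl12 per length was 5.57, 6.89 and 6.49 in WT and 1.96, 2.39 and 1.81 in AS. Csf1r, the receptor of Csf1 and Il34, was called lower in AS at 10.2 against 3.81 CPM.

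Lif, a gp130 ligand, was at 87.2, 35.8 and 28.5 CPM in WT and 35.9, 34.2 and 30.2 in AS, with a log2 fold change of -0.60 (SE 0.34) that was not called (adjusted p = 0.196). The difference rested on WT replicate 1, at 2.71 times the mean of the other WT samples, and was 0.06 without it (adjusted p = 0.716). Of 38 genes of the set with a mean of at least 1 CPM, that sample was the highest WT sample for 17 and the lowest for 16, and it exceeded 1.5 times the mean of the others for 4, Lif, Il17rb, Cxcl1 and Il34.

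Il11 had the largest fall among the interleukins. Il11, which signals through Il11ra1 and gp130, was at 99.9, 68.0 and 79.6 CPM in WT and 11.9, 13.6 and 9.04 in AS. The lowest WT sample lay far above the highest AS sample. The log2 fold change was -2.84 (SE 0.17) with an adjusted p = 2.34e-06. Il11ra1, its receptor, was at 25.5, 28.3 and 26.4 CPM in WT and 19.7, 21.3 and 21.2 in AS (log2 fold change -0.37, SE 0.07, adjusted p = 0.00313), though it overlaps Galt on the same strand, which had 3951 counts in all beside 6991 for Il11ra1. Il6st itself was at 652, 619 and 619.5 CPM in WT and 702, 644 and 697 in AS, and was not called (log2 fold change 0.11, SE 0.06, adjusted p = 0.185).

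Il6, another gp130 ligand, was low, at 0.414, 0.363 and 0.693 CPM in WT and 0.155, 0.0583 and 0.0908 in AS (log2 fold change -2.26, SE 0.52, adjusted p = 0.00678). Its receptor chain Il6ra was higher in AS, from 4.71, 6.21 and 4.92 CPM to 7.97, 6.69 and 8.37 (log2 fold change 0.54, adjusted p = 0.0185), but not without WT replicate 3, AS replicate 1 or AS replicate 3. Il7, a lymphocyte growth factor, was at 9.98, 15.5 and 14.5 CPM in WT and 9.81, 9.99 and 8.66 in AS. Its groups overlapped, and the call (log2 fold change -0.49, adjusted p = 0.0351) was lost with limma-voom (0.0543) and without any one sample but WT replicate 1.

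Il15 and Il17d were the called interleukins higher in AS. Il15, which acts on T and natural killer cells, was at 7.67, 8.84 and 8.56 CPM in WT and 11.5, 12.1 and 12.0 in AS (log2 fold change 0.50, SE 0.10, adjusted p = 0.00355). Il17d was at 0.789, 0.918 and 0.715 CPM in WT and 2.13, 1.79 and 2.23 in AS (log2 fold change 1.34, SE 0.23, adjusted p = 0.00143). Il18, Il34, Il33 and the antagonist Il1rn were not called, with log2 fold changes of -0.25, -0.32, -0.62 and 0.25. The other 30 interleukin genes were not tested and had at most 31 counts each, among them Il1b, Il13, Il17a and Il22 at 0.

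Of 24 tested interleukin receptors and binding protein genes, 7 were called higher and 7 lower (58.3% called). Of all tested genes, 40.1% were called (20.4% higher and 19.6% lower). In the interleukin 1 receptor family, Il1rl1, the receptor of Il33, rose from 5.68, 8.78 and 8.62 CPM to 17.2, 18.8 and 25.5 (log2 fold change 1.42, SE 0.19, adjusted p = 0.000387). Il1r1, the signalling receptor of interleukin 1, was at 21.5, 15.2 and 15.0 CPM in WT and 12.2, 9.20 and 12.7 in AS (log2 fold change -0.60, adjusted p = 0.0174). The shared accessory chain Il1rap was at 20.2, 23.4 and 23.6 CPM in WT and 16.7, 18.5 and 15.5 in AS (log2 fold change -0.41, adjusted p = 0.00751). Thus the chain that binds Il33 was higher while its partner chain was lower. Il18rap, an accessory chain for interleukin 18, was at 1.28, 2.84 and 2.99 CPM in WT and 1.02, 0.914 and 1.20 in AS (log2 fold change -1.18, adjusted p = 0.0176). The Il1r1 call was lost without AS replicate 2 (0.0582) and the Il18rap call without WT replicate 2, WT replicate 3 or AS replicate 2.

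Of 5 tested interleukin 17 receptor genes, Il17rc, Il17ra and Il17re were called higher in AS, beside 40.1% of all tested genes called (20.4% higher). Il17rc was at 51.0, 59.2 and 48.8 CPM in WT and 69.1, 68.0 and 61.5 in AS (log2 fold change 0.32, adjusted p = 0.0125), and Il17ra, the common chain, at 28.0, 25.6 and 26.7 against 31.0, 32.6 and 29.1 (0.21, adjusted p = 0.0423). Il17re was at 0.0789 to 0.173 CPM in WT and 0.214 to 0.466 in AS (1.65, adjusted p = 0.0315). The Il17ra call was lost under 8 of 14 alternatives, that of Il17re under 5 and that of Il17rc without AS replicate 1. Il17rb was not called (log2 fold change 0.25, adjusted p = 0.649). Il17rd, a family member with the other direction, was at 45.9, 42.7 and 43.0 CPM in WT and 38.0, 31.2 and 40.8 in AS, without overlap (log2 fold change -0.26, SE 0.10, adjusted p = 0.0557), and was called lower under 6 of 14 alternatives, DESeq2 and the likelihood ratio test among them.

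Among the remaining receptors, Il3ra and Il23r fell. Il3ra, the alpha chain for interleukin 3, was at 19.9, 19.6 and 21.4 CPM in WT and 10.2, 11.0 and 10.9 in AS (log2 fold change -0.92, SE 0.08, adjusted p = 3.08e-05). Il23r was at 2.92, 5.74 and 5.05 CPM in WT and 1.40, 1.19 and 1.33 in AS (log2 fold change -1.81, SE 0.26, adjusted p = 0.000556), while Il23a, a subunit of its ligand, had 23 counts in all. Il13ra1, a chain for interleukins 4 and 13, was at 34.3, 22.4 and 26.3 CPM in WT and 19.1, 15.0 and 22.3 in AS (log2 fold change -0.56, adjusted p = 0.0280), a call lost without WT replicate 1, AS replicate 1 or AS replicate 2. The low genes Il20rb and Il1rapl1, both under 1 CPM in every sample, had log2 fold changes of 1.17 and 1.68 and adjusted p = 0.0419 and 0.0451, and each lost its call in 5 of the leave-one-out fits. For Il1rapl1 the log2 fold change was 2.91 without WT replicate 1. The 18 receptor genes that were not tested had at most 41 counts each, with Il10ra, Il11ra2 and Il7r at 0. Il4i1, an amino acid oxidase that the naming rule also takes in, was not called (log2 fold change 0.51, adjusted p = 0.557). The plot of fold changes by role shows all 50 genes.

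**Figure D3:**
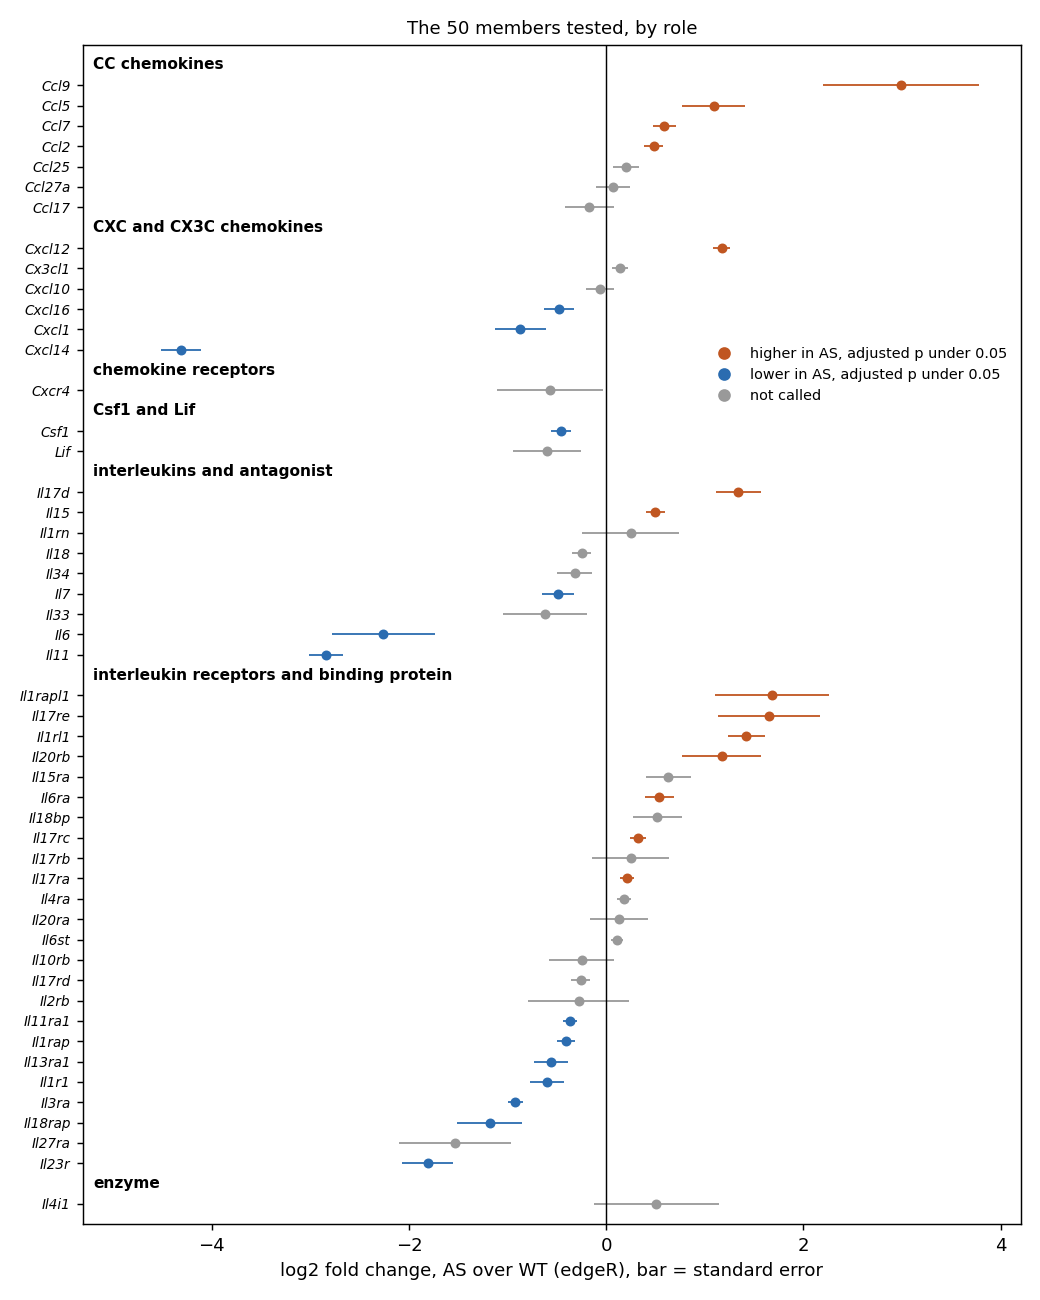
Log2 fold change of AS over WT with its standard error for the 50 tested genes, grouped by role, with genes called higher in orange, called lower in blue and not called in gray. The called CC chemokines lie to the right of 0, while the interleukins and interleukin receptors lie on both sides.

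The genes that signal with the set were counted in 4 lists. Of all tested genes, 40.1% were called, and 46.1% in the fit on genes with a mean of at least 1 CPM. Of 28 NF-kB and TIR adaptor genes, all tested, 8 were higher and 9 lower in AS (60.7% called, median log2 fold change 0.01), led by Tnfaip3, an NF-kB inhibitor (120 against 259 CPM), Irak3, an inhibitory kinase of the family (1.94 against 6.36), Nfkbie (24.6 against 12.9) and Chuk (60.0 against 83.0). Of 23 tested JAK, STAT and SOCS genes, 8 were higher and 6 lower (60.9% called, median 0.0), with Jak2 and Stat2 higher and Jak1 and Socs7 lower. Of 13 tested cytokines and receptors that share chains with the set, 3 were higher and 6 lower (69.2% called, median -0.17). Clcf1, a ligand of the Cntf family, fell from 593 to 282 CPM (log2 fold change -1.07, adjusted p = 5.99e-05) and Csf2ra from 13.0 to 6.24. Of 4 tested atypical and other chemokine genes, Ackr3 alone was called, lower in AS, while Ppbp, Ccrl2 and Ackr4 were not.

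**Figure D4:**
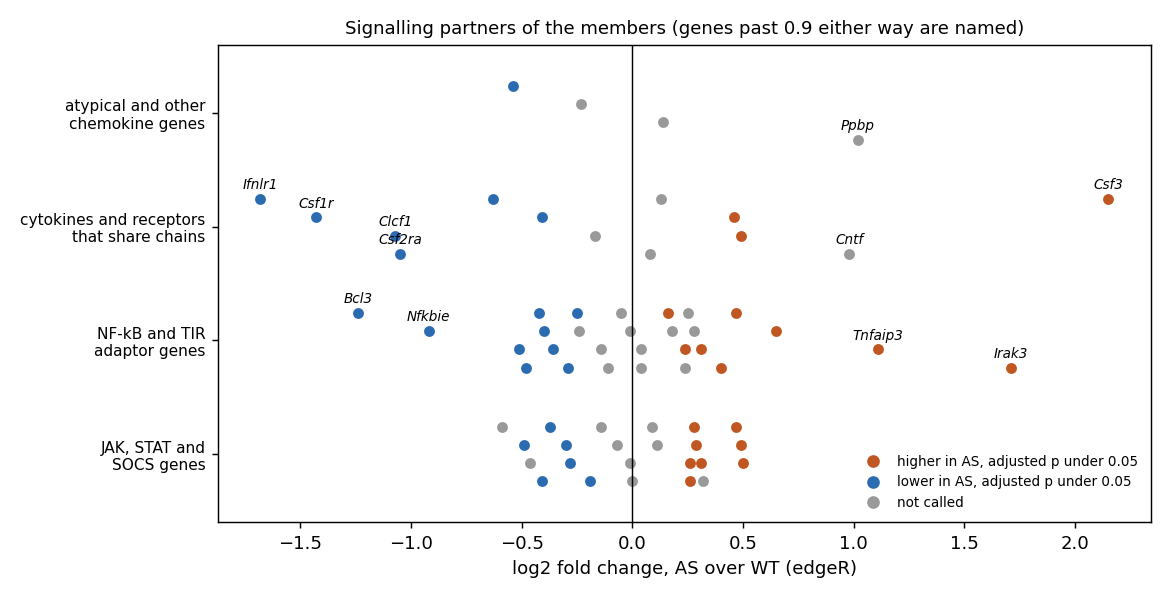
Log2 fold change of AS over WT for the tested genes of the 4 partner lists, one point per gene, orange called higher, blue called lower and gray not called. Genes of each list lie on both sides of 0, and genes past 0.9 in either direction are named, a limit chosen after the values were seen.

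Some markers of other cell types also differed between the lines, beside 40.1% of all tested genes called. The summed level of 10 endothelial markers was 10.5 to 15.1 CPM in WT and 2.34 to 3.56 in AS. Most of it came from Erg, at 8.76 against 1.10 CPM, and Flt1, at 3.05 against 1.43. Of 4 tested, Erg, Flt1 and Kdr were called lower and Vwf was not called. Pecam1 and Cdh5 were below the filter, and Tie1 and Cldn5 were at 0. The summed level of mesangial and fibroblast markers was 9768 to 12252 CPM in WT and 9098 to 10697 in AS. Of 9 tested, 1 was called higher (Dcn, 0.538 against 2.35) and 3 lower (Pdgfrb, 252 against 116, Tagln and Thy1). Acta2, the most abundant, had a log2 fold change of 0.01. The summed level of tubular markers was 632 to 771 CPM in WT and 658 to 819 in AS. Of 6 tested, Cdh16 was called higher (71.2 against 199.6) and Aqp1 lower (115 against 69.7). The part of these markers in the cytokine differences was not tested. Median log2 fold changes by chromosome were taken only over tested genes above a minimum mean level. That of chromosome 8 (616 genes), which holds 6 of the tested genes of the set including Il15, lay 0.31 above the median of all such genes. That of chromosome 6 (530 genes), with Cxcl12, Il17rc, Il23r, Il17ra and Il17re, lay at -0.22 relative to it. The part of these shifts in the values of single genes was not tested.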

How the data were processed

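RNA was measured by sequencing in 3 WT and 3 AS samples, grouped by the labelled genotype. The authors deposited raw counts per gene, and per the labels the processing tools were FastQC, Trim Galore, STAR and edgeR with build mm39. No source used here names the read counter, its strand setting or the annotation release. Of 57132 identifiers, 51880 matched GENCODE M21 without version numbers, and those left without a symbol held 0.363% of counts. Counts were fitted with edgeR 4.0.16 in R 4.3.3 (filterByExpr with a minimum count of 10 and total of 15, TMM, genotype only, quasi-likelihood F test, Benjamini-Hochberg over 16263 genes). Standard errors were taken as the size of the log2 fold change over the root of its F. Levels per kb used M21 exon length. Alternatives were other scalings and filters, DESeq2 1.42.0, limma 3.58.1 voom, the likelihood ratio test, a replicate block and leaving out each sample. Library depth was 45417221 to 54290968 counts, and intervals and floors cover counting error only. Every tested gene was assigned to a role, with values in every sample for called genes with a mean of at least 1 CPM and for Csf1, Lif, Cx3cl1, Cxcl12 and Il6st. Of the others, up to 4 a role were named by adjusted p or level, and of each partner list the 4 with the smallest adjusted p, of which 1 is not reported here. Other low genes, marker genes and receptors were named after their values were seen. The genes and lists were chosen with earlier results of these data known, and the ligand-receptor pairings after values were seen. Promoter letters came from the RefSeq table, which held 39 of the 50 tested genes. Protein sequences were not used here.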

Additional observations from a re-analysis of the deposited data

How the results depend on the processing

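Of 688 recomputed log2 fold changes of the 50 tested genes, 616 kept direction and side of the threshold, 48 lost a call, 14 gained one (in Il15ra, Il17rd, Il27ra and Lif) and 10 changed sign, all in genes not called. Of 28 called genes, 14 kept the call under every alternative that tested them (Il6 was below the minimum of a mean CPM of at least 1). Of 50 tested, 28 were called with DESeq2 size factors, library size only or DESeq2, 29 with limma-voom and 30 with the likelihood ratio test. In these settings 39.9% to 41.3% of all genes were called. With no filter 30 of 101 were called, beside 24.2% of all genes. When 1 sample was left out 17 to 26 of 50 to 52 were called, beside 30.7% to 40.4% of all genes. At a mean CPM of at least 1, 24 of 38 were called, beside 46.1% of all genes. Called genes with a fold over 2 numbered 8 instead of 13 under that expression minimum, which tested 38 genes of the set. With 1 sample left out, the log2 fold changes that changed sign ranged from -0.076 to 0.20 for Ccl27a, -0.18 to 0.063 for Cxcl10, -0.049 to 0.86 for Il17rb, -0.53 to 0.51 for Il1rn, -0.066 to 0.34 for Il20ra, -0.64 to 0.087 for Il2rb, -0.04 to 0.91 for Il4i1 and -0.88 to 0.055 for Lif. The cause was not tested. The log2 fold change of Ackr4 ranged from -0.49 to 0.054.

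With the replicate number as a block, 29 of 50 genes of the set (14 higher, 15 lower) were called, beside 43.4% of all genes (7066). After removing group means, samples correlated at 0.147, 0.0939 and 0.0526 where they had the same number and at -0.13 to 0.0571 for others, and WT replicate 3 correlated at 0.0571 with AS replicate 2 and at 0.0526 with AS replicate 3. All same-number correlations were positive, and of the others only that of WT replicate 3 with AS replicate 2 was. The titles number the samples as sets without saying what a set shares, and the main fit used genotype only, without pairs. A shared set is not excluded.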
